A study of Mus musculus with 11 samples.

Results

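The resting transcriptome of a mouse pancreatic acinar cell line was described from the 2 of 11 RNA-seq libraries that received neither Arid1a knockdown nor growth factor. Both are labelled siCtrl and were chosen by that label alone. The line, 266-6, comes from a pancreatic tumour of a mouse that carried the SV40 T antigen under elastase I control sequences, so it is a tumour-derived line and not freshly isolated acini. The siCtrl cells, labelled Arid1a-wildtype, were transfected for 48 h with the non-targeting siRNA NT5, kept overnight without serum and given 0.1% BSA, the vehicle, for 8 h. The other 9 libraries, used here only as a range, come from the same line after the same steps. They are 3 with NT5 and EGF at 40 ng/ml, 3 with Arid1a siRNAs at 25 nM and BSA, and 3 with Arid1a siRNAs and EGF. The labels do not say whether the 2 siCtrl libraries came from separate cultures, so the spread between them may be technical. No test between groups was made, and values are given as replicate 1 and replicate 2, in that order.

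Acinar cells make, store and secrete the digestive enzymes of the pancreas, most of them as inactive zymogens packed in granules. The bHLH factor PTF1A, in complex with an E protein and RBPJL, drives the enzyme genes together with NR5A2, while BHLHA15 (MIST1) and XBP1 set up granules and the secretory endoplasmic reticulum. When acinar cells lose this programme, they can take on ductal or progenitor features such as SOX9 and keratin 19, a change called acinar-to-ductal metaplasia.

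The siCtrl libraries held 19773007 and 14059719 counted reads, against 10279763 to 16796787 in the other 9. Levels are CPM, the reads of a gene scaled to the total reads counted in that library. A gene was called present at 1 CPM or more in both siCtrl libraries, and trace when it had reads but was not present. Of 23284 gene symbols, 12309 (52.9%) were present, 4014 were trace and 6961 (29.9%) had 0 reads in both libraries. The number of present genes in each list below is to be read beside this 52.9%. A count of 0 in both allows a level of up to 0.0887 CPM, which is 3 reads over the pair. Across genes, 9581 reached 10 CPM in both libraries, 2668 reached 100 CPM and 38 reached 1000 CPM. A CPM grows with the length of the transcript, so an order of genes by CPM is an order of read numbers. Where the levels of different genes are set against each other, RPKM is given (the CPM of a gene divided by its kilobases of exon). The ribosomal RNA gene Rn45s took 0.0681% and 0.0902% of reads.

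The chymotrypsinogen gene Ctrb1 took the most reads of any gene in both libraries, at 14337 and 12321 CPM. It took 1.43% (95% Wilson interval 1.43 to 1.44) of reads in replicate 1 and 1.23% (1.23 to 1.24) in replicate 2. These intervals cover counting error only, and the distance between the libraries is wider than either. Per length, Ctrb1 reached a mean of 15181 RPKM, and the next gene, the ribosomal protein gene Rpl8, had 1886 RPKM. A second zymogen, Cela1, elastase 1, was the tenth gene by CPM, at 1718 and 1611 CPM. Reg1, a secreted protein of acinar cells, was at 1297 and 1255 CPM, rank 22. Most other genes among the leading 10 serve every cell, with Eef2, translation elongation factor 2, at 4474 and 4693 CPM and the chaperone gene Hsp90ab1 at 3934 and 4040 CPM. Scd2, a fatty acid desaturase, was the third gene by CPM, at 3978 and 4884 CPM.

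**Figure D1:**
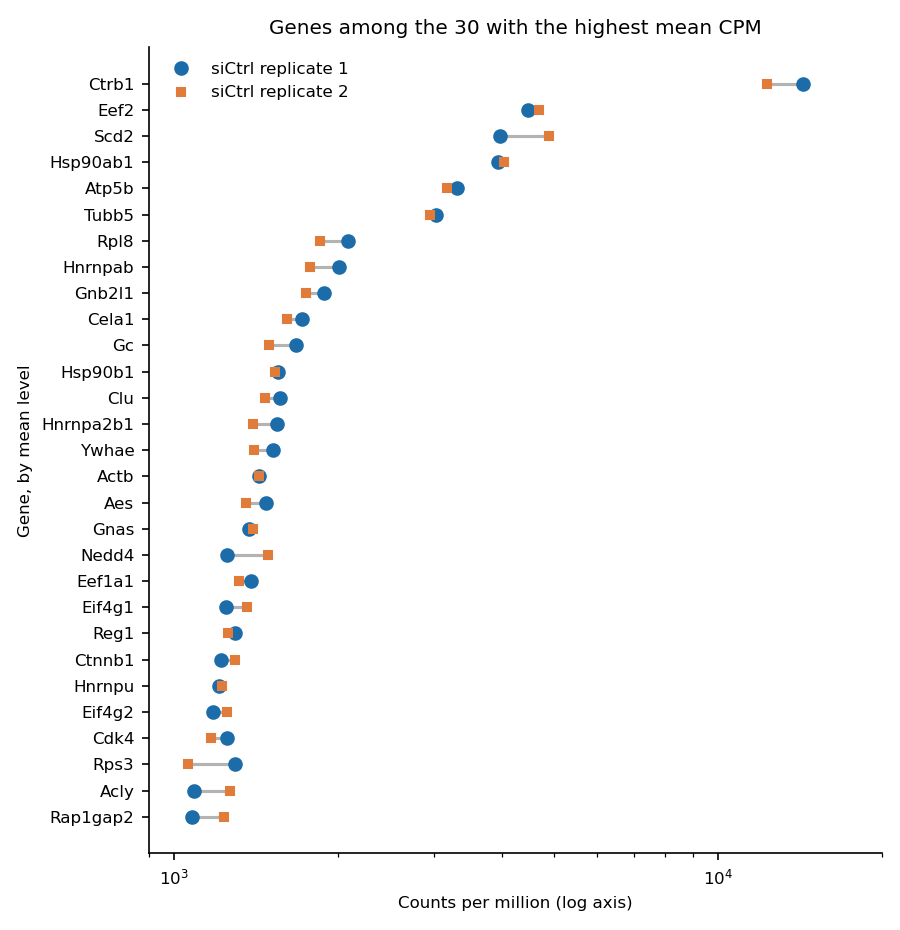
CPM (log axis) of 29 of the 30 genes with the highest mean level, with a circle for siCtrl replicate 1 and a square for replicate 2. Ctrb1 lies apart at 14337 and 12321 CPM, with Eef2 next at 4474 and 4693 CPM.

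The leading 10 genes together held 4.08% (Wilson interval 4.07 to 4.09) and 3.91% (3.90 to 3.92) of reads. The leading 100 held 12.9% in each library, and the leading 1000 held 43.1% in each. Of the leading 100, 81 were also among the leading 100 of the NT5 and EGF group, 84 of the Arid1a siRNA and BSA group and 80 of the Arid1a siRNA and EGF group. Ranked per length, housekeeping transcripts followed Ctrb1, among them Atp5b, a subunit of the mitochondrial ATP synthase, at 1692 RPKM. Reg1 stood at 1411 RPKM and Cela1 at 897 RPKM. The value for Cela1 depends on the transcript length used, and with the length implied by the deposited FPKM values it became 1649 RPKM. Reg1 stayed above it on that length, at 2001 RPKM.

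Some further genes among the leading 100 are given with their values. They were picked after the values were seen, and no list of their pathways was counted. The ATP citrate lyase gene Acly had 1088 and 1266 CPM, and the fatty acid synthase gene Fasn had 857 and 1206 CPM. Scd1 had 874 and 1061 CPM, and the squalene epoxidase gene Sqle had 844 and 837 CPM. Insig1, a sterol-sensing regulator, had 824 and 851 CPM, and Cyp51 had 805 and 866 CPM. The vitamin D binding protein gene Gc had 1676 and 1496 CPM. Clu, which codes for clusterin, had 1567 and 1473 CPM. Vtn, vitronectin, had 1108 and 1130 CPM, and the selenoprotein gene Sepp1 had 1232 and 994 CPM. The imprinted fetal growth factor gene Igf2 had 1012 and 1122 CPM, and Mest, also imprinted, had 762 and 886 CPM. H19, the imprinted neighbour of Igf2, lay outside the leading 100 at 645 and 663 CPM.

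The label of an acinar line was checked with Ctrb1, Cpa1, Ptf1a and Nr5a2. All 4 were present, at 839 and 865 CPM for Cpa1, carboxypeptidase A1, at 215 and 193 CPM for Ptf1a and at 140 and 173 CPM for Nr5a2. Of the 49 acinar enzyme and granule genes in the tables, 27 (55.1%) were present, 16 were trace and 6 had 0 reads. This share was close to the 52.9% of all symbols. Their median level was 3.27 CPM, against 2.26 CPM over all symbols. Summed, the 49 genes took 1.96% (Wilson interval 1.95 to 1.96) of reads in replicate 1 and 1.71% (1.70 to 1.72) in replicate 2. Ctrb1 alone made up 73.3% and 72.0% of that sum. Of the acinar enzyme and granule genes not present, 4 were over 1 FPKM in at least 1 of the 9 deposited FPKM columns used here. Their absence from the counts is therefore uncertain.

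Among 17 acinar protease genes, 11 were present, and their levels spanned several orders of magnitude. Below Ctrb1, Cela1 and Cpa1 came the trypsinogen genes Try5, at 412 and 273 CPM, and Prss2, at 296 and 236 CPM. Try5 differed 1.51-fold between the replicates, more than most genes of its level. The elastase gene Cela2a was at 23.6 and 19.5 CPM. Prss3 had 29.2 and 22.1 CPM and Try4 had 19.5 and 13.3 CPM. Cela3b had 8.45 and 7.68 CPM, and Prss1, a trypsinogen gene, had 5.71 and 2.77 CPM. Trypsinogen genes are near-identical copies of each other, so their split is uncertain. The remaining 6 protease genes were trace, among them the carboxypeptidase B gene Cpb1, at 0.556 and 0.782 CPM, and the chymotrypsin C gene Ctrc, at 0.0506 and 0.0711 CPM. Per length, Ctrb1 at 15181 RPKM stood above Cpa1 at 538 RPKM, Try5 at 427 RPKM and Prss2 at 326 RPKM, and the replicates did not overlap between Cpa1 and Ctrb1.

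The promoters of Ctrb1, Cela1 and Prss1 are shown because they hold, with the same spacing, the pair of boxes known from binding of the PTF1 complex, in 2 genes of high level and 1 of low level. Capitals mark the pair. It was defined as an E-box, CACCTG or CAGCTG, and a box TTTCCC, each on either strand, at most 20 bases apart and not overlapping. Each run covers the 250 bases before the start of the gene on its own strand, from RefSeq and build GRCm38.p6.
Ctrb1, chr8:111691011-111691260, minus strand: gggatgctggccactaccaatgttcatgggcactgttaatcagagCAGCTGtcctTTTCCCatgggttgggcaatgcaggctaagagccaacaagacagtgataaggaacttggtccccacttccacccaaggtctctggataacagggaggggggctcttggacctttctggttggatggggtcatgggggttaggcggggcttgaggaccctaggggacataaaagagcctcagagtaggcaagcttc
Cela1, chr15:100687921-100688170, minus strand: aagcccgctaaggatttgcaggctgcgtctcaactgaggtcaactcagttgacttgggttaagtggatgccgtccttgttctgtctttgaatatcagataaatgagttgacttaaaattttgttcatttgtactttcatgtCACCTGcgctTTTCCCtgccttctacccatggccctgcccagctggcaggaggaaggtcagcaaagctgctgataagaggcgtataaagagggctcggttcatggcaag
Prss1, chr6:41458680-41458929, plus strand: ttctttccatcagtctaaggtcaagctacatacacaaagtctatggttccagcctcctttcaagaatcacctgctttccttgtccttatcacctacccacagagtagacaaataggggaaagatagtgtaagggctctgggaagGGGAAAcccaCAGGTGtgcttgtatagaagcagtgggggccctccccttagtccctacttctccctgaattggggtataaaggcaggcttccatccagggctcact
The boxes lay 4 bases apart in all 3, and the pair began 205 bases before the start in Ctrb1, 109 in Cela1 and 106 in Prss1.

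Promoter entries matched 40 of the 49 acinar enzyme and granule genes. The pair was found in 5 of the 21 present genes with an entry (23.8%), namely Ctrb1, Cela1, Prss1, Cel and Reg3d, and in 0 of the 19 that were not present. Over all 27025 genes with a promoter of this length, 1.40% held the pair in any promoter, and over the 9675 present genes among them 1.41% did. The boxes were 15 bases apart in Cel and 9 in Reg3d. The E-box alone was in 66.7% of the present acinar genes, 47.4% of those not present and 30.6% of all genes with a promoter. TTTCCC alone was in 42.9%, 15.8% and 24.4% of the same sets. The search was chosen after these letters had been seen, so the shares are a description of the letters in these windows.

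Of 15 lipase, amylase and nuclease genes, 7 were present, 3 were trace and 5 had 0 reads. Pnliprp1, pancreatic lipase-related protein 1, was at 303 and 269 CPM. The pancreatic lipase gene Pnlip had 5.16 and 3.77 CPM and its cofactor gene Clps, colipase, had 5.92 and 5.41 CPM. Cel, bile salt-stimulated lipase, had 10.9 and 6.19 CPM, and Pnliprp2 had 7.23 and 8.04 CPM. Per length, Pnliprp1 at 177 RPKM stood above Pnlip at 3.002 RPKM. Amy1, the salivary and liver amylase gene, had 12.1 and 6.61 CPM, while the pancreatic amylase genes Amy2a2, Amy2a3, Amy2a4 and Amy2a5 had 0 reads in both libraries. Amylase genes are near-identical copies, so a read that fits several of them may not have been counted, and their levels are uncertain. Rnase1, pancreatic ribonuclease, was trace at 0.101 and 0.356 CPM.

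Granule, Reg family and inhibitor genes were present in 9 of 17 cases. Spink3, the trypsin inhibitor that guards against early activation, was at 101 and 73.4 CPM. Its per-length mean was 120 RPKM with the annotated length and 357 RPKM with the implied one. Serpinb1a, a protease inhibitor, was at 56.1 and 55.2 CPM, and Cuzd1, a zymogen granule protein, was at 13.6 and 10.1 CPM. Other granule proteins were low, with Zg16 at 3.34 and 3.20 CPM and Sycn, syncollin, at 3.03 and 2.85 CPM. Gp2, the main glycoprotein of the granule membrane in tissue, was trace at 0.101 and 0.0711 CPM. Of the Reg family, Reg1 was abundant, Reg3a had 6.47 and 3.70 CPM, Reg2 was trace at 0.0506 and 0.0711 CPM, and Reg4 had 0 reads.

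**Figure D2:**
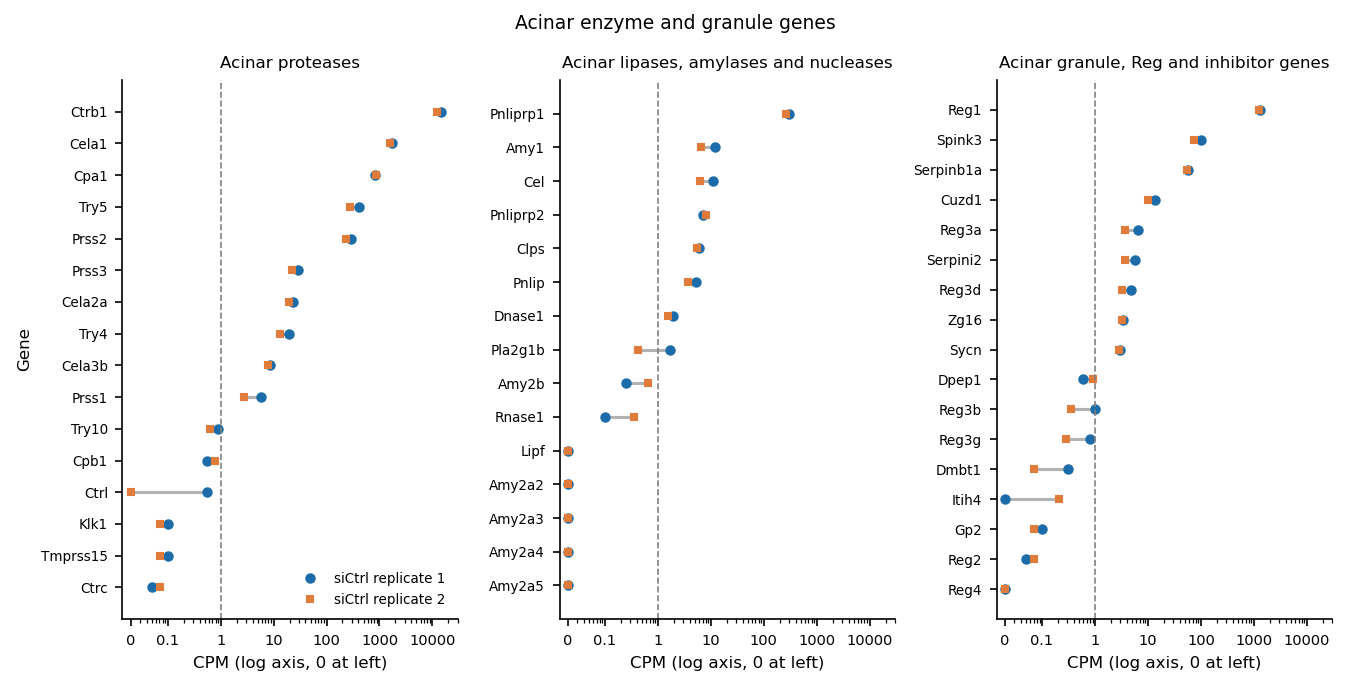
CPM (log axis, 0 drawn at the left end) of 48 of the 49 acinar enzyme and granule genes in 3 panels, with circles for siCtrl replicate 1, squares for replicate 2 and a dashed line at 1 CPM. The levels run from Ctrb1 at 14337 and 12321 CPM down to 6 genes at 0 in both libraries.

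The siCtrl levels were set beside the range of the other 9 libraries, all scaled to total counted reads. A gene close to the edge of that range may cross it with another scaling, which was not tested. Among all present genes, 9.33% were above all 9 other libraries in both siCtrl libraries and 6.29% were below all 9. Of the 27 present acinar enzyme and granule genes, 2 were above and 1 was below, near those shares. Cpa1 lay above the 535 to 822 CPM of the other 9, and Prss3 lay above 3.61 to 20.004 CPM. Serpinb1a lay below 63.5 to 128 CPM. Ctrb1 ranged from 10882 to 14223 CPM in the other 9, with siCtrl replicate 2 inside that range and replicate 1 above it.

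A larger share of the listed secretion machinery was present than of its cargo. All 39 listed genes of endoplasmic reticulum folding and export were present, against 52.9% of all symbols. Their median was 273 CPM, against 39.6 CPM over all present genes. Such a share was not particular to secretion, as 96.0% of listed SWI/SNF genes and 96.2% of listed RAS pathway genes were present. Hsp90b1, an ER chaperone, had 1556 and 1536 CPM, P4hb, protein disulfide isomerase, had 1028 and 1026 CPM, and Hspa5 (BiP) had 908 and 960 CPM. Of 29 exocytosis genes, 28 were present. Vamp8, a SNARE of the granule membrane, had 70.0 and 56.5 CPM, and Rab3d, a granule GTPase, had 39.6 and 40.0 CPM. Rab27b, which also sits on zymogen granules, was at 1.82 and 1.92 CPM. Per length, Rab27b had 0.249 RPKM and Rab3d 10.1 RPKM. Of 23 further acinar secretory and metabolic genes, 18 were present, with Gamt, of creatine synthesis, at 280 and 273 CPM. Erp27, an ER protein, had 165 and 123 CPM, and Gjb1, connexin 32, had 11.6 and 11.8 CPM.

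Acinar transcription factor genes were present in 26 of 28 cases (92.9%), against 52.9% of all symbols. Their median was 90.3 CPM, against 39.6 CPM over all present genes. The list includes E protein and Id genes, which add to both the number and the median. The parts of the PTF1 complex were all present. The bHLH subunit Ptf1a had 215 and 193 CPM, above the 139 to 173 CPM of the other 9 libraries. Rbpjl, the acinar partner, had 287 and 296 CPM, and its ubiquitous relative Rbpj had 25.1 and 22.8 CPM. Per length, Rbpjl had 119 RPKM and Rbpj 3.45 RPKM. Of the E proteins, Tcf3 had 418 and 436 CPM and Tcf12 had 209 and 237 CPM. The Id genes, whose products bind E proteins and keep them off DNA, were present too, with Id3 at 278 and 237 CPM, Id1 at 229 and 186 CPM and Id2 at 160 and 130 CPM.

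Of the other acinar regulators, Xbp1 was at 402 and 392 CPM, Gata4 at 315 and 374 CPM and Gata6 at 147 and 159 CPM. Bhlha15 was at 20.5 and 29.3 CPM, inside the 17.4 to 58.1 CPM of the other 9. Per length it had 7.13 RPKM against 135 RPKM for Ptf1a, and the replicates of the 2 genes did not overlap. Hnf4a, a nuclear receptor of gut and liver epithelia, was present at 91.1 and 98.0 CPM, while Hnf4g had 0 reads and Spdef was trace. In the whole list, 8 present genes were above the other 9 libraries, among them Ptf1a, Gata4 and Gata6, and 2 were below, Hnf4a and Foxa3, beside 9.33% above and 6.29% below over all present genes.

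Transcription factor genes of pancreatic progenitors, ducts and metaplasia were present alongside, in 27 of 32 cases (84.4%), against 52.9% of all symbols. Their median was 17.0 CPM, against 39.6 CPM over all present genes. Nkx6-2 had 590 and 531 CPM, above the 147 to 332 CPM of the other 9. Pdx1, the pancreas master regulator, had 396 and 435 CPM, above the 194 to 374 CPM of the other 9. Sox4 had 206 and 238 CPM, and Myc had 108 and 117 CPM. Onecut1 (HNF6) had 49.2 and 64.7 CPM and Mnx1 had 59.8 and 58.1 CPM. The ductal and progenitor factor Sox9 had 38.8 and 58.9 CPM, and these overlap the 40.3 to 101 CPM of the other 9. Hes1, a Notch target, had 49.6 and 36.1 CPM. Per length, Nkx6-2 was at 432 RPKM, Pdx1 at 192 RPKM (337 with the implied length) and Sox9 at 11.8 RPKM. The 3 genes with 0 reads were Yap1, Tead4 and Sall4. Wwtr1 (TAZ), the paralogue of Yap1, was present at 36.2 and 29.2 CPM. In this list 9 present genes were above the other 9 libraries and 1, Klf4, was below, beside 9.33% above and 6.29% below over all present genes.

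**Figure D3:**
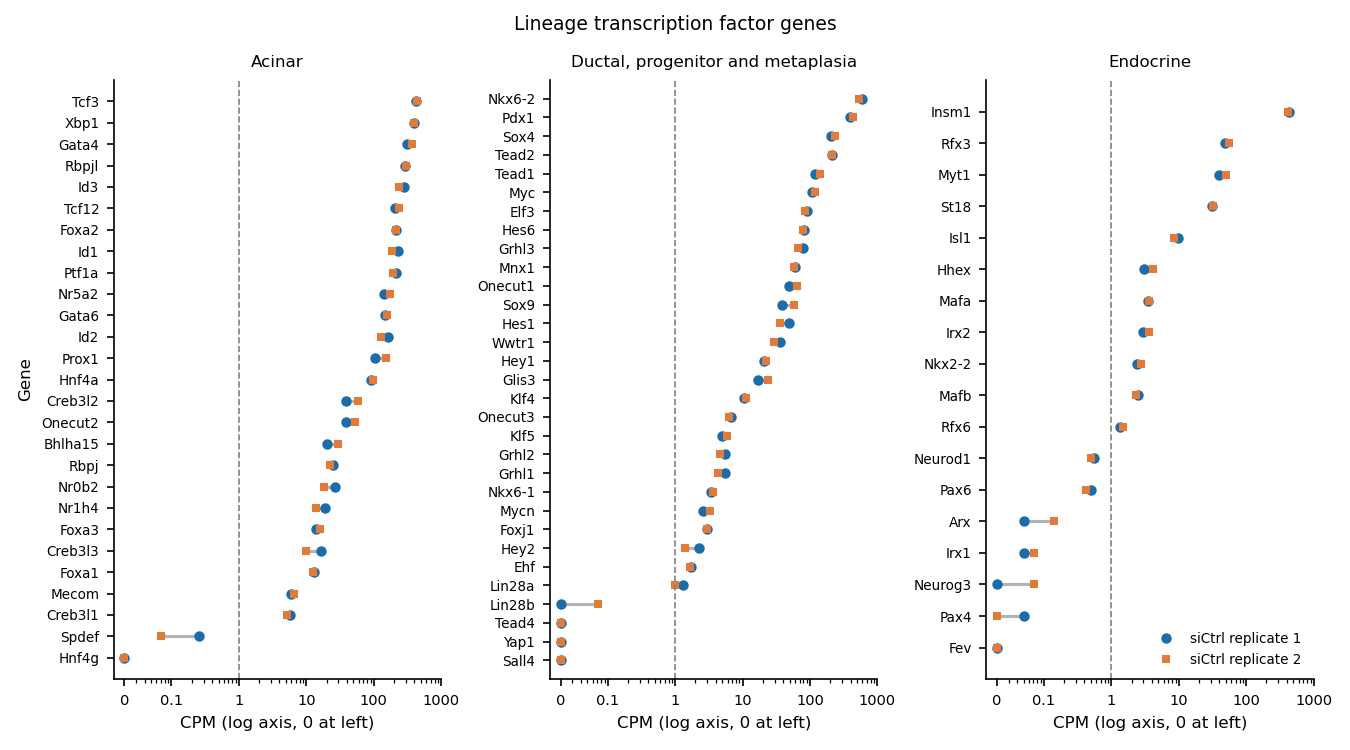
CPM (log axis, 0 drawn at the left end) of 76 of the 78 acinar, ductal or progenitor, and endocrine transcription factor genes listed, with circles for siCtrl replicate 1, squares for replicate 2 and a dashed line at 1 CPM. Most acinar and progenitor factors lie right of the line, and Yap1, Tead4, Sall4, Hnf4g and Fev lie at 0 in both libraries.

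Ductal and metaplasia marker genes were mostly low, with 16 of 39 present, 16 trace and 7 at 0 reads, and a median of 0.730 CPM. Clu, abundant as above, was the exception in level. Cldn1, a tight junction claudin, had 83.0 and 85.4 CPM, the stem cell antigen gene Prom1 had 58.5 and 78.9 CPM and Cd44 had 28.7 and 35.6 CPM. Krt19, the usual duct keratin, was at 1.67 and 2.13 CPM, Krt7 was trace at 0.607 and 0.854 CPM, and the chloride channel gene Cftr was trace at 0.152 and 0.213 CPM. Spp1, osteopontin, had 1.77 and 1.21 CPM. The secretin receptor gene Sctr, Muc4, Agr2 and Tff1 were among those with 0 reads.

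The keratins of simple epithelia were low as well. Krt18 had 12.4 and 10.2 CPM and its partner Krt8 was trace at 0.910 and 1.99 CPM. Krt20 had 35.7 and 33.6 CPM. Both Krt8 and Krt18 have processed copies in the genome, so reads that fit several places may be missing from these counts. Epithelial adhesion genes were present, with Cdh1, E-cadherin, at 418 and 398 CPM and Epcam at 33.9 and 26.3 CPM, among 23 of 30 listed. N-cadherin, Cdh2, had 85.5 and 92.0 CPM.

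Islet genes split by kind. Of 29 hormone and granule genes, 12 were present, 7 trace and 10 at 0 reads. The hormone genes Ins1, Ins2, Gcg, Sst and Iapp had 0 reads, and Ppy was trace at 0.455 and 0.285 CPM. The granule protein gene Chga, chromogranin A, was at 752 and 697 CPM, rank 103 among all genes. Cpe, carboxypeptidase E of prohormone processing, had 236 and 213 CPM. Both subunits of the beta cell potassium channel were present, Abcc8 at 243 and 285 CPM and Kcnj11 at 171 and 174 CPM. The prohormone convertase gene Pcsk1 was trace at 0.152 and 0.0711 CPM, and the transporter genes Slc2a2 and Slc30a8 had 0 reads. Of 18 endocrine transcription factor genes, 11 were present. Insm1 had 437 and 411 CPM, Rfx3 had 48.4 and 55.8 CPM and Isl1 had 9.61 and 8.39 CPM. Neurog3, which starts endocrine fate, had 0 and 0.0711 CPM, Neurod1 was trace at 0.556 and 0.498 CPM, and Fev had 0 reads.

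Genes of other tissues and cell types checked what else the cultures might hold. Of 20 immune genes 3 (15.0%) were present, against 52.9% of all symbols, among them Coro1a at 44.5 and 41.3 CPM. The pan-leukocyte gene Ptprc had 0.0506 and 0 CPM, and Csf1r and Cd3e had 0 reads. Of 14 endothelial genes 4 were present, among them Tek at 44.1 and 42.2 CPM, while Cdh5 and Flt1 had 0 reads and Pecam1 was trace at 0.202 and 0.356 CPM. Summed levels were 55.1 and 52.3 CPM for the immune list and 94.1 and 86.9 CPM for the endothelial list. Of 27 fibroblast and stellate cell genes 14 (51.9%) were present, close to the 52.9% of all symbols, with sums of 985 and 1014 CPM. Vim, vimentin, had 322 and 303 CPM, Pdgfrb had 273 and 267 CPM and Col4a1 had 173 and 207 CPM. The collagen gene Col1a1 was trace at 0.860 and 0.925 CPM, Fn1 was at 0 and 0.0711 CPM, and Lum had 0 reads.

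Among 28 liver genes 9 (32.1%) were present, against 52.9% of all symbols, and 11 had 0 reads. Besides Igf2 and H19, the retinol carrier gene Rbp4 had 446 and 376 CPM, Apoe had 157 and 135 CPM, and the albumin gene Alb had 22.3 and 17.4 CPM. Fga, Fgb, Fgg and Cps1 had 0 reads, and Afp was trace at 0.0506 and 0.0711 CPM. Among 22 stomach and intestine genes 7 were present, with the brush border peptidase gene Anpep at 144 and 160 CPM and Cdx2 at 1.77 and 2.49 CPM, while Sox2, Pgc and Fabp1 had 0 reads. Of 15 muscle, fat and blood genes only Myh11 was present, at 15.8 and 16.3 CPM. Of 16 neural genes 6 were present, with Snap25, also an exocytosis gene, at 55.1 and 55.9 CPM and Sox10 at 0 reads.

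**Figure D4:**
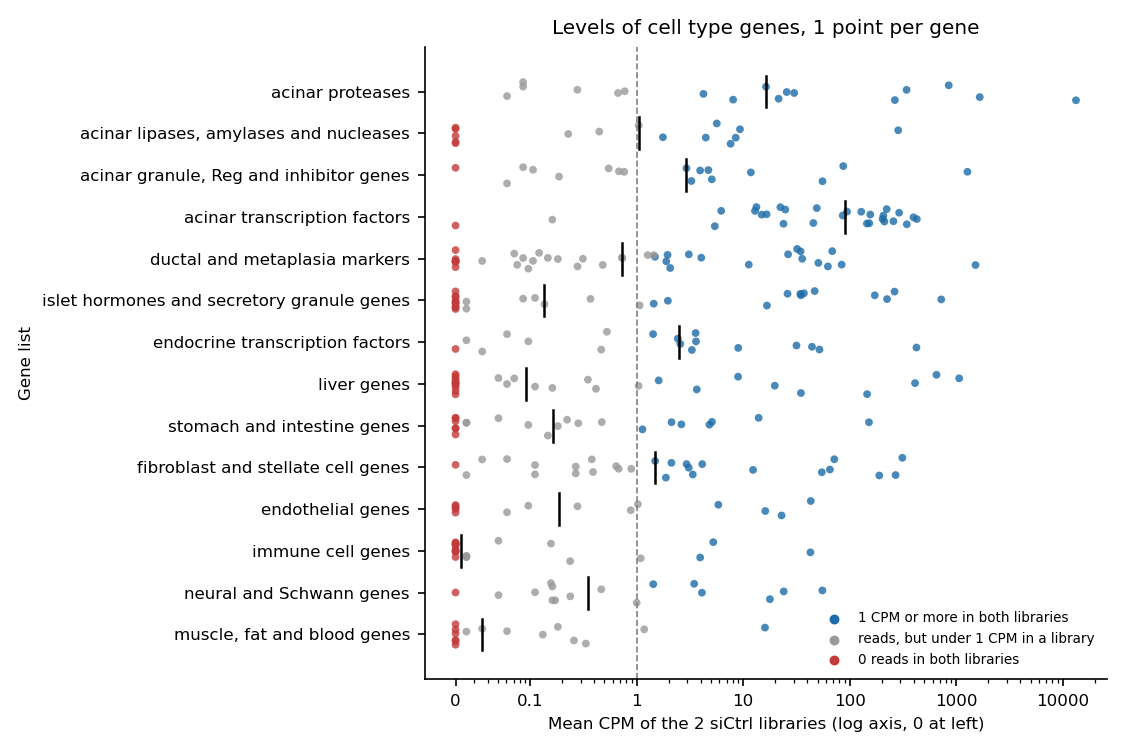
Mean CPM of the 2 siCtrl libraries (log axis, 0 drawn at the left end) for each gene of 14 cell type lists, with a black bar at each list's median and a dashed line at 1 CPM. Blue points were present, grey were trace and red had 0 reads. The acinar transcription factor list, which includes E protein and Id genes, has the highest median, 90.3 CPM.

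Receptors decide which secretagogues acinar cells can answer, and 24 of 36 listed receptor and calcium signalling genes were present, with a median of 4.07 CPM. Cckar, the receptor for cholecystokinin on rodent acinar cells, was at 10.97 and 18.3 CPM, above the 1.03 to 9.02 CPM of the other 9 libraries. Cckbr had 4.96 and 5.90 CPM, above their 1.69 to 4.38 CPM. The muscarinic receptor genes for acetylcholine were nearly without reads, with Chrm1 at 0 reads and Chrm3 at 0 and 0.0711 CPM. The secretin receptor gene Sctr and the bombesin receptor gene Grpr had 0 reads. Vipr1, a receptor for vasoactive intestinal peptide, had 26.6 and 33.1 CPM, and the somatostatin receptor gene Sstr2 had 82.4 and 83.9 CPM. The ATP-gated channel gene P2rx1 was at 294 and 254 CPM. Per length, P2rx1 had 110 RPKM and Sstr2 had 38.8 RPKM (69.6 with the implied length). Downstream, the calcium release channel gene Itpr3 had 181 and 197 CPM and the calcium pump gene Atp2a2 had 383 and 411 CPM. Of the 24 present genes, 8 were above the other 9 libraries and 6 were below, beside 9.33% above and 6.29% below over all present genes.

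Of 18 genes listed for the ERBB family, its ligands, ligand-shedding proteases and inhibitors, 11 were present before any EGF was given. Egfr, the receptor for EGF, had 55.4 and 78.0 CPM, inside the 43.8 to 111 CPM of the other 9. Erbb2 had 11.9 and 12.1 CPM, Erbb3 had 6.02 and 11.02 CPM, and Erbb4 had 0 reads. Per length, Egfr was at 6.09 RPKM (11.9 with the implied length), Erbb2 at 2.40 RPKM and Erbb3 at 1.42 RPKM. Among the ligands, Tgfa had 10.5 and 13.0 CPM, Hbegf had 10.0 and 8.18 CPM and Egf itself had 1.57 and 1.78 CPM, while Areg, Ereg and Epgn had 0 reads. The ligand-shedding protease gene Adam10 had 528 and 622 CPM, and the feedback inhibitor gene Errfi1 had 38.5 and 41.1 CPM.

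In the list of other receptor tyrosine kinase genes, which also holds Igf2r, a receptor without a kinase domain, 30 of 45 were present. Igf2r, which clears IGF2, had 360 and 444 CPM, and Epha7 had 252 and 242 CPM. Fgfr3 had 163 and 161 CPM, above the 85.1 to 133 CPM of the other 9. Fgfr2 had 89.3 and 89.2 CPM, above their 8.96 to 27.2 CPM. Met, the hepatocyte growth factor receptor gene, had 42.0 and 46.5 CPM. Cytokine, TGF-beta, Notch and Wnt receptor genes were present in 44 of 51 cases, with Notch1 at 278 and 348 CPM and Tgfbr2 at 13.1 and 14.7 CPM, while Il1r1 and Prlr had 0 reads. Nuclear receptor genes were present in 30 of 48 cases. Beside Nr5a2 and Hnf4a, Nr2f6 had 189 and 164 CPM and the retinoid partner gene Rxra had 151 and 165 CPM, and the glucocorticoid receptor gene Nr3c1 had 87.6 and 98.9 CPM.

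The cells expressed the genes of the cell cycle. Of 37 proliferation, RB and p53 genes, 35 were present, against 52.9% of all symbols, with a median of 144 CPM. Of these, 12 were above the other 9 libraries and 2 were below, beside 9.33% above and 6.29% below over all present genes. Cdk4 was at 1251 and 1170 CPM, Top2a at 896 and 904 CPM and Mki67 at 668 and 793 CPM. Of the D cyclins that pair with CDK4, Ccnd3 had 58.4 and 56.0 CPM, Ccnd1 had 1.97 and 2.35 CPM and Ccnd2 was trace at 0.101 and 0.0711 CPM. Per length, Ccnd3 had 23.4 RPKM and Ccnd1 0.577 RPKM. Cdk6 was trace at 0 and 0.142 CPM. SV40 T antigen binds RB and p53 proteins, and Trp53 had 259 and 219 CPM, Rb1 had 33.2 and 31.9 CPM and Cdkn2a had 157 and 142 CPM. The p53 target gene Cdkn1a had 21.5 and 21.3 CPM. Reads of the viral transgene were not analysed here.

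RAS pathway genes were present in 25 of 26 cases. SWI/SNF chromatin remodelling genes were present in 24 of 25 cases. Arid1a, the gene the study knocked down elsewhere, had 292 and 397 CPM, with 123 to 298 CPM in the other 9. That range pools libraries with and without Arid1a siRNAs. Its ATPase partner Smarca4 had 328 and 378 CPM. The paralogue Arid1b had 124 and 136 CPM, and Dpf3 was trace at 0.506 and 0.925 CPM.

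A pair of well-known tumour genes had 0 reads in both siCtrl libraries and were singled out after their values were seen. Yap1, the Hippo pathway effector, had 0 reads in all 11 libraries, which together held 155364508 reads, which allows a level of up to 0.0193 CPM at 3 reads over all 11. The deposited FPKM table also lists Yap1 at 0 in its 9 columns used here. In the gene order of RefSeq, Birc3 on one side had 2.23 and 2.70 CPM and Birc2 beyond it had 36.5 and 30.4 CPM. On the other side the nearest gene, Cfap300, had 0.101 and 0 CPM, with 6 reads in all 11 libraries. Cep126, next to it, was not found in the counts under its RefSeq names. Beyond them Trpc6 and Pgr had 0 reads in all 11 libraries, and Arhgap42 had 26.7 and 28.8 CPM. Nf1, a brake on RAS, had 0 reads in both siCtrl libraries and 2 reads in all 11. Its neighbour Wsb1 had 79.1 and 76.7 CPM, Omg, Evi2a and Evi2b had 0 reads, and Rab11fip4 had 16.4 and 26.2 CPM. Genes were ordered by start position, so a gene named here may lie inside another. Why any of these genes lacked reads was not tested. Of 8 sex chromosome genes 0 were present. Xist had 0 and 0.0711 CPM, and Ddx3y, Kdm5d, Uty and Sry had 0 reads.

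Some genes that every cell uses were low in the counts, which limits what a low count means. Gapdh was at 4.602 and 4.41 CPM and Rpl3 at 9.002 and 9.53 CPM. Rpl26 had 0 and 0.0711 CPM, though the deposited FPKM table has it at up to 78.2 FPKM in the other 9 libraries. In that comparison 33 genes, after small RNAs named as such were left out, had a mean under 1 CPM and over 5 FPKM in the other 9. Of the listed genes with 0 reads, 8 reached 0.1 FPKM in a column of that table. Of those not present, 18 reached 1 FPKM. Genes with many processed copies, overlapping genes and near-identical families are therefore uncertain here. Such genes may also be missing from the leading genes, so the ranks and shares above are those of counted reads.

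The 2 siCtrl libraries lay within 1.5-fold of each other for most genes. Of 9709 genes with a mean of 10 CPM or more, 137 (1.41%) differed by more than 1.5-fold and 4 by more than 2-fold. In the 9 replicate pairs of the other groups the share over 1.5-fold ran from 0.0309% to 1.46%. Of the 27 present acinar enzyme and granule genes, 6 differed by more than 1.5-fold, namely Try5, Prss1, Amy1, Cel, Reg3a and Serpini2. All of them but Try5 had a mean under 10 CPM. Over all genes with a mean of 1 CPM or more the share was 4.56%. Across the 12309 present genes, which are not independent replicates, the log2 levels of the 2 libraries had a Pearson r of 0.992. This was the lowest r of the 10 replicate pairs, the other 9 having 0.992 to 0.997. A chi-square of the read counts per degree of freedom was 10.9 for the siCtrl pair, also the largest, against 1.57 to 9.04. This measure grows with read depth, and siCtrl replicate 1 held the most reads of any library. The metallothionein genes, which bind zinc and copper, led the differences. Mt2 had 308 and 108 CPM and Mt1 had 630 and 272 CPM, and both values of Mt1 lie inside the 254 to 725 CPM of the other 9 libraries. Pla1a, a phospholipase gene, had 14.8 and 6.83 CPM, and Xrn1, an RNA exonuclease gene, had 11.8 and 25.8 CPM.

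The difference between the 2 libraries moved with gene length. In the shortest quartile of genes, up to 2208 bases of exon, the median log2 difference, replicate 2 minus replicate 1, was -0.15, and 14.4% of genes were higher in replicate 2. In the longest quartile, from 5188 bases, the median was 0.16 and 81.5% were higher in replicate 2. Of the 27 present acinar enzyme and granule genes, whose exon lengths ran from 556 to 2256 bases, 25 were higher in replicate 1, and Cpa1 and Pnliprp2 were higher in replicate 2. The part of length in these differences was not tested.

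**Figure D5:**
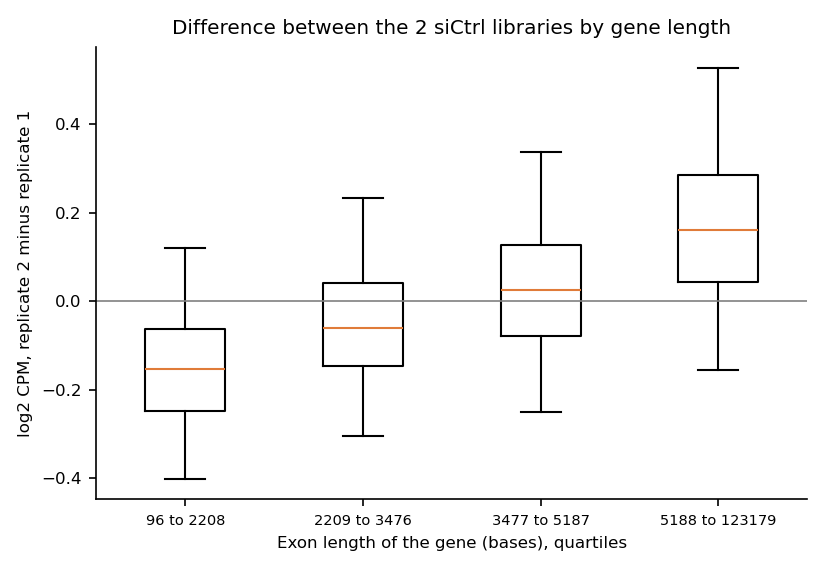
log2 CPM of replicate 2 minus replicate 1 for genes with a mean of 10 CPM or more, in quartiles of exon length in bases. Boxes span the middle quartiles with an orange median, whiskers run from the 5th to the 95th percentile, and the medians go from -0.15 in the shortest quartile to 0.16 in the longest.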

How the data were processed

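Poly(A) RNA of 266-6 cells was sequenced from TruSeq v2 libraries, which do not mark strand. The authors deposited read counts per gene for each of the 11 libraries and a table of FPKM values. TopHat2 2.1.1, HTSeq 0.9.1, Cuffnorm 2.2.1.2 and Cuffdiff 2.2.1.5 and the mouse build mm9 are named per the submitters' processing notes; their annotation and settings are not given in the sources used here. Counts whose reads fit several places may have been left out. The FPKM values, which the authors deposited, served only as a check on 9 columns, and 3 control columns that match no single library were not used.

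CPM was computed here from the counts over the total counted reads of each library. RPKM used exon-union lengths of GENCODE vM21, found for 97.9% of symbols and 99.1% of present genes. Promoters came from RefSeq, build GRCm38.p6. No mitochondrially encoded gene is listed. No test between groups was run. TMM factors (edgeR 4.0.16) and size factors (DESeq2 1.42.0) served as alternative scalings, beside other minimum levels, other lengths and leaving out each library. The scripts were tested on simulated data. Named genes were the leading 30 by CPM, the leading 20 by RPKM and the members of 28 lists of 734 genes; members and lists were chosen with earlier results of these data known. Genes named outside that rule are marked in the text or are those differing most between the libraries. A few genes of the lists are not reported here by name.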

Additional observations from a re-analysis of the deposited data

How the results depend on the processing

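Scaling hardly moved any level. Over 507 named genes, TMM factors changed the mean CPM by 0.999 to 1.002 times and DESeq2 size factors by 0.998 to 1.003 times. The number of present genes, 12309, was 10570 at a minimum of 5 CPM, 12920 at 0.5 CPM and 15036 at 1 read in both libraries, and 12449 to 12484 with either library left out. The 27 present acinar enzyme and granule genes became 41 when 1 read in each library was enough, and were 27 to 29 with either library left out. The share of reads in the leading 100 genes, a mean of 12.9%, was 12.88% to 12.96% with either library left out. The share of genes differing over 1.5-fold between the libraries depended on the minimum level, at 1.41% from 10 CPM, 4.56% from 1 CPM and 0.451% from 50 CPM. Lengths implied by the deposited FPKM moved the RPKM of 63 of 494 named genes by over 1.5 times, by 0.406 to 3.56 times. No paired analysis was possible because the results come from 1 group and from no test. An alternative without mitochondrially encoded genes was not run, since 0 are listed. Depth limits a gene with 0 reads to 0.0887 CPM over both libraries.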
